A study of Mus musculus with 10 samples.

Results

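The genes that make cholesterol and fatty acids, and the genes that control their transcription, were followed through IL-4 treatment of adipocyte precursors (APs). They were 31 genes, chosen by symbol with earlier results of these data known, of 18384 named genes in the mRNA tables. The set held 7 enzymes of the mevalonate route, 10 squalene and sterol enzymes, 6 genes of SREBP control and sterol transfer, and 8 genes of fatty acid synthesis. All 31 had a row in the tables and all passed the filter on low counts, which left 14009 genes for testing.

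The APs came from subcutaneous white adipose tissue of C57BL/6 J mice and were isolated by removing CD45+ and CD31+ cells and then keeping SCA-1+ cells. They were grown in serum-containing medium without (control) or with the type 2 cytokine IL-4, which was the only difference between the groups that the labels give. mRNA was sequenced in 3 control libraries (replicates 1 to 3) and 3 IL-4-treated libraries (replicates 4 to 6) after 4 days. Small RNA was sequenced from 2 control and 2 IL-4-treated cultures after 2 days. The paper calls the small RNA samples biological replicates and the mRNA samples only replicates. Age, sex and IL-4 dose were not given in the sources used here, and serum supplies cholesterol and fatty acids from outside, so the cultures model cells that can also take up lipid.

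The mevalonate route turns acetyl-CoA into isoprenoid units, and the squalene and sterol enzymes join and reshape these into cholesterol. The transcription factors SREBP-2 (Srebf2) and SREBP-1 (Srebf1) switch the genes on: SCAP carries them from the endoplasmic reticulum to the Golgi to be cut and released when sterol is low, and the INSIG proteins hold them back when sterol is high. In preadipocytes fatty acid synthesis is known for its rise during fat cell differentiation, while dividing cells need sterols and fatty acids for new membrane.

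The mRNA libraries held between 28526782 and 29057787 expected counts, so depth was nearly equal, while the share held by the top 10 genes was 9.14% to 9.59% in control and 13.8% to 15.5% in IL-4-treated libraries. Values below are expected counts normalized by TMM scaling unless FPKM is named. All 9 AP markers were detected, 6 higher and 1 lower with IL-4, and Ly6a, the SCA-1 gene used in the isolation, was at 121 ± 11.7 FPKM in control and 245 ± 40.4 with IL-4 (SD, n = 3). Macrophage markers were detected too, although CD45+ cells had been removed, 10 of 10, with a summed level of 3040 to 3890 FPKM in control and 1200 to 1540 FPKM in IL-4-treated libraries. Lyz2 alone made most of that sum (2470 to 3220 and 673 to 937 FPKM), and the other 9 summed to 538 to 666 and 529 to 601 FPKM. Of these 10, 8 were lower, including Ptprc (the CD45 gene, log2 fold change -0.99) and Csf1r (-1.05), and Mrc1 was higher (0.82). The largest falls were in Cx3cr1 (-8.65), Aif1 (-4.43) and Fcgr1 (-2.91). Among all genes tested 18.4% were called lower and 19.0% higher. The 5 endothelial markers summed to 12.0 to 12.4 and 9.09 to 9.74 FPKM, and all 5 lymphocyte markers stayed at 3 counts or fewer. Of 5 mature adipocyte markers, Plin1, Cidec and Lep stayed at 3 counts or fewer, Adipoq had 0, 0 and 3 expected counts in control and 13, 9 and 10 with IL-4, and Fabp4 was higher with IL-4 (1.10). In bulk RNA, fewer cells of a type cannot be told apart from less RNA per cell, and the part of macrophage RNA in the results below was not tested.

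IL-4-treated APs had lower mRNA of most of these genes. At an adjusted p under 0.05 (edgeR, over all genes tested), 22 of the 31 were downregulated, 1 was upregulated and 8 were not called. Over all tested genes 18.4% were called lower and 19.0% higher. Beyond a log2 fold change of -1 were 7 of the 31 (Acat2, Hmgcs1, Idi1, Cyp51, Hsd17b7, Stard4 and Elovl6), against 5.26% of all genes. The median log2 fold change was -0.62 over the 31 genes and 0.0026 over all genes tested. For 24 of the 31, every IL-4-treated library lay below every control library, which was so for 25.3% of all genes tested. When library totals set the scale, 28 of the 31 were downregulated and the median of all genes was -0.17, with 1704 genes called higher and 4963 lower against 2663 and 2582 here.

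Each of the 3 treated libraries showed the fall. The median over the 31 genes of the log2 ratio to the control mean was -0.51, -0.54 and -0.74 in IL-4 replicates 4, 5 and 6. It was between -0.01 and 0.02 in the controls, which themselves set that mean and so are no independent contrast. Within the mevalonate route these medians were -0.81, -0.91 and -0.73, and among the squalene and sterol enzymes -0.70, -0.74 and -0.76. They were smaller and less even for SREBP control and sterol transfer (-0.27, -0.26 and -0.52) and for fatty acid synthesis (-0.21, -0.30 and -0.69), where replicate 6 was the lowest.

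**Figure D1:**
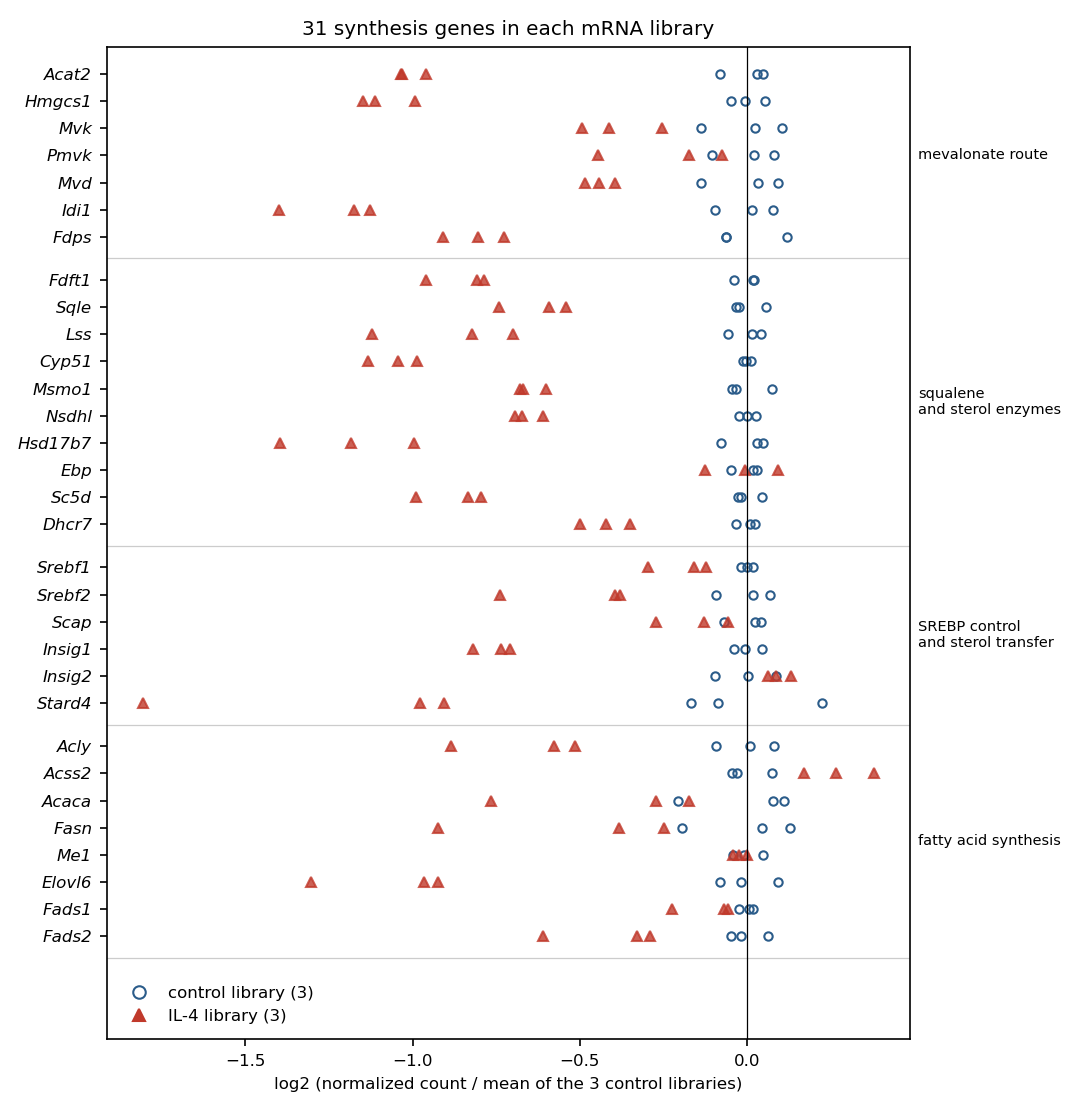
The log2 ratio of the normalized count to the mean of the 3 controls (x axis) is shown for each of the 31 genes (rows, by role), with open circles for control and triangles for IL-4-treated libraries. For 24 genes the 3 triangles all lie to the left of the circles, and Stard4 in IL-4 replicate 6 lies farthest left at -1.81.

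The mevalonate route fell at its entry and at its end. Of its 7 enzymes 6 were downregulated, with a median log2 fold change of -0.81. Acat2, the cytosolic thiolase that joins a pair of acetyl-CoA molecules, had 1385, 1514 and 1497 normalized counts in control and 717, 715 and 753 in IL-4-treated libraries, a log2 fold change of -1.01 ± 0.06 (SE, adjusted p = 1.14e-05). Hmgcs1, which adds the next acetyl unit to give HMG-CoA, had 7001, 7308 and 6802 counts in control and 3539, 3252 and 3174 with IL-4 (-1.08 ± 0.06, adjusted p = 7.35e-06). Both genes were thus at 49.7% and 47.2% of control by the fit, with no overlap between the groups.

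Idi1, the isomerase that interconverts the isoprenoid units, had a more negative fold change than any other of the 31 genes in this fit, though Stard4, Hsd17b7 or both were below it without control replicate 3, IL-4 replicate 4, IL-4 replicate 5, or control replicate 3 and IL-4 replicate 6 together (without IL-4 replicate 4, -1.33 and -1.28 against -1.25). Its counts were 2645, 2854 and 2979 in control and 1251, 1294 and 1070 with IL-4 (-1.23 ± 0.09, adjusted p = 1.9e-05). Fdps, which condenses these units to farnesyl diphosphate, had 3587, 3588 and 4070 counts in control and 2144, 1995 and 2267 with IL-4 (-0.81 ± 0.08, adjusted p = 9.52e-05). The 3 enzymes between these pairs changed less. Mvk and Mvd, a kinase and the decarboxylase, were lower by log2 fold changes of -0.38 and -0.44 (adjusted p = 0.0136 and 0.00271). Pmvk, the second kinase, was at -0.22 with a 95% interval from -0.48 to 0.03 and was not called (adjusted p = 0.158). The Mvk call was lost without control replicate 1 (adjusted p = 0.0546) or without IL-4 replicate 5 (0.0616).

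Nearly every squalene and sterol enzyme was lower as well: 9 of 10 were downregulated, with a median of -0.75. Fdft1, squalene synthase and the first enzyme committed to sterols, had 2911, 3034 and 3037 counts in control and 1540, 1712 and 1737 with IL-4 (-0.85 ± 0.07, adjusted p = 3.03e-05). Sqle, the epoxidase that follows it, went from 3854, 4096 and 3875 to 2617, 2708 and 2359 (-0.62 ± 0.07, adjusted p = 0.000222). Lss, which closes the ring to lanosterol, had 1990, 2132 and 2092 counts in control and 1275, 1172 and 952 with IL-4 (-0.87 ± 0.10, adjusted p = 0.000356). No treated library overlapped a control library for these genes.

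Cyp51, the demethylase that acts on lanosterol, had nearly identical counts among controls at 5583, 5642 and 5550, and 2819, 2712 and 2551 with IL-4 (-1.05 ± 0.06). Its adjusted p of 5.03e-06 was the smallest among the 31 genes. The enzymes that remove the next methyl groups followed. Msmo1, the methyl oxidase, had 3416, 3447 and 3716 counts in control and 2217, 2201 and 2323 with IL-4 (-0.65 ± 0.06, adjusted p = 8.26e-05). Nsdhl, the decarboxylating dehydrogenase of the same step, had 1365, 1342 and 1391 counts and then 844, 894 and 857 (-0.66 ± 0.06, adjusted p = 6.61e-05). Hsd17b7, the ketoreductase that completes it, fell further, from 1581, 1562 and 1450 to 768, 673 and 582 (-1.18 ± 0.10, adjusted p = 5.63e-05).

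The last steps gave unequal values. Ebp, the isomerase that moves the ring double bond, had 1178, 1125 and 1186 counts in control and 1157, 1066 and 1240 with IL-4, values that overlapped. Its log2 fold change was -0.01, with a 95% interval from -0.18 to 0.16 that lay above the whole interval of each of the 9 called enzymes in this group. Ebp was named with its counts after its values were seen. Sc5d, the desaturase acting next, had 2563, 2690 and 2576 counts in control and 1504, 1463 and 1314 with IL-4 (-0.87 ± 0.07, adjusted p = 3.26e-05). Dhcr7, which gives cholesterol or its last precursor, was lower by a smaller amount (-0.42, adjusted p = 0.00112).

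**Figure D2:**
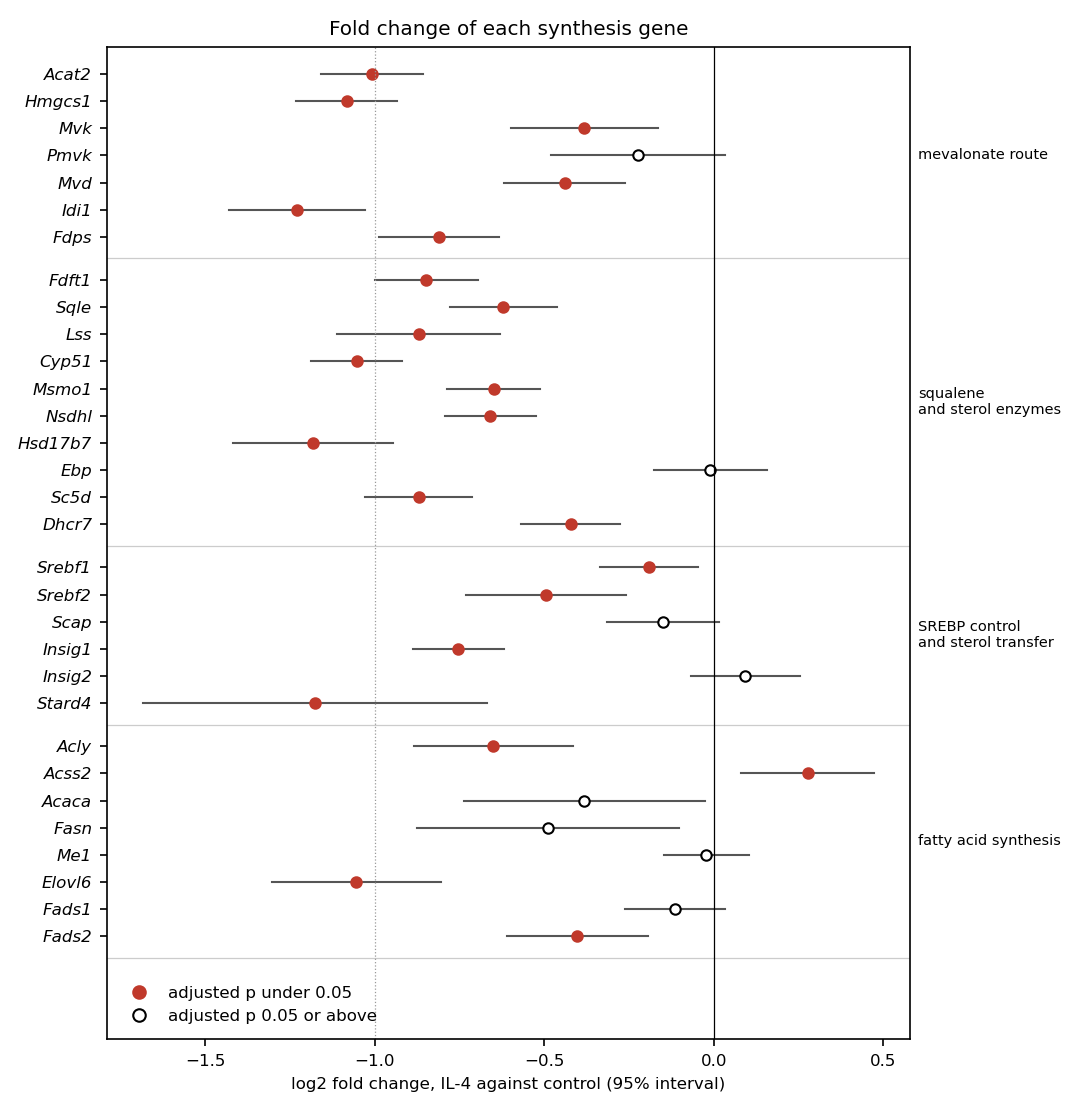
Points give the log2 fold change of IL-4-treated against control APs for each gene and lines its 95% interval, with filled red points for an adjusted p under 0.05 and a dotted line at -1. All 17 mevalonate and sterol enzymes lie left of 0, with Ebp closest to it at -0.01, and Acss2 is the only filled point right of 0.

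Level and change did not follow the same order. In FPKM, a count per transcript length and per library total, Fdps was the most abundant sterol enzyme in control APs at 114 ± 9.29 (SD, n = 3). Hmgcs1 (74.7 ± 2.02) and Msmo1 (74.0 ± 4.03) came next and did not differ beyond their spread. At the other end stood Hsd17b7 (12.5 ± 0.49), Lss (12.2 ± 0.42) and Pmvk (12.1 ± 0.83), again within their spread of one another. With IL-4, Fdps was at 57.3 ± 4.48 FPKM, Msmo1 at 41.8 ± 1.93 and Hmgcs1 at 31.3 ± 1.51, so that Msmo1 and Hmgcs1 no longer overlapped. The lowest were then Hsd17b7 (4.88 ± 0.61) and Lss (5.89 ± 0.77), and Pmvk stood above both at 9.17 ± 1.29. Because FPKM divides by the library total, FPKM changes lay below those of normalized counts. Over all genes with a mean FPKM of at least 1, the median log2 fold change was -0.15 on the log2(FPKM + 1) scale.

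**Figure D3:**
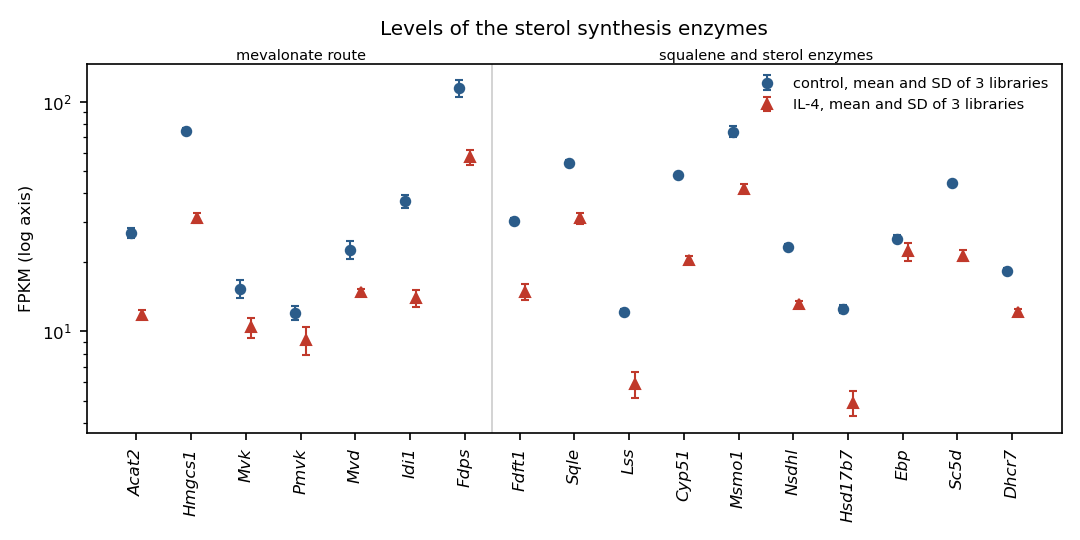
FPKM on a log axis is plotted for the 17 sterol synthesis enzymes in pathway order, as mean and SD of 3 control (circles) and 3 IL-4-treated (triangles) libraries. Fdps is highest in both groups (114 and 57.3 FPKM), and Ebp has the closest pair of means (25.4 and 22.3 FPKM).

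Promoter sequence of these genes was described beside that of all RefSeq promoters, which were not limited to genes tested here. RefSeq promoters (GRCm38.p6) were found for 26 of the 31 genes, 35 promoters in all, and were not found for Fdps, Fdft1, Sqle, Stard4 and Fads1. In the 250 bases before the start, on either strand, the sterol regulatory element core TCACNCCAC was present in 1 of the 35 (2.86%, Hmgcs1) and in 1.05% of all 32851 promoters. The looser form TCACNNCAC, which includes the first, was in 4 (11.4%, for Hmgcs1, Msmo1, Hsd17b7 and Dhcr7) against 3.11% of all. CCAAT, the letters bound by NF-Y, was in 21 (60.0%) against 33.8%, and the GC box GGGCGG in 25 (71.4%) against 32.7%. The E-box CACGTG was in 5 (14.3%) against 6.02%. The letters TTCNNNNGAA, a spacing used by the IL-4-activated factor STAT6, were in 0 of 35 and in 5.85% of all promoters. A match describes letters in this window only, and a link between these letters and the fall was not tested.

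The last 150 bases before the start are shown for the genes beyond a log2 fold change of -1 that had a promoter, and for Insig1, Srebf2 and the little-changed Ebp, so that they can be read side by side. Capitals mark CCAAT and TCACNNCAC on either strand, and a match on the other strand appears as its reverse complement. The first motif was marked in 6 of these 9 and the second in 2 of them. Coordinates are GRCm38.p6, and each sequence is written 5′ to 3′ in the direction of its gene.
Acat2, chr17:12960726-12960875, minus strand: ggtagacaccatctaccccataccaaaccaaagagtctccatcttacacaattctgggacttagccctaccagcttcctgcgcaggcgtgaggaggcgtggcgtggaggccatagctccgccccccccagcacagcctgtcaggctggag
Hmgcs1, chr13:119690201-119690350, plus strand: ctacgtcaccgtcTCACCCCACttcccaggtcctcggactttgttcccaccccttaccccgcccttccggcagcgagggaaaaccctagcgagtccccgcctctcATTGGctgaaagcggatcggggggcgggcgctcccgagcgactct
Idi1, chr13:8885456-8885605, plus strand: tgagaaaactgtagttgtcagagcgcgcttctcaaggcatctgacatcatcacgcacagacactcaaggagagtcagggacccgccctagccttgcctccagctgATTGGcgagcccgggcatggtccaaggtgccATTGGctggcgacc
Cyp51, chr5:4104698-4104847, minus strand: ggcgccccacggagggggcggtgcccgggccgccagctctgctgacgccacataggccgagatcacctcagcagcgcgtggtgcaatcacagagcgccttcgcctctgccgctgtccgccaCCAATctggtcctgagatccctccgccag
Hsd17b7, chr1:169969206-169969355, minus strand: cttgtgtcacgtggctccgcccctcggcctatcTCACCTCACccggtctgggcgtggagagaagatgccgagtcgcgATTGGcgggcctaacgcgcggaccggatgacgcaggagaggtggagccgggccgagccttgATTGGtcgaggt
Elovl6, chr3:129532236-129532385, plus strand: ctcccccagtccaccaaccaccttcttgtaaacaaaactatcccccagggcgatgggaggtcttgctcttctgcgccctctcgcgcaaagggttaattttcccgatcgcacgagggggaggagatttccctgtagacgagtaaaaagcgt
Insig1, chr5:28071262-28071411, plus strand: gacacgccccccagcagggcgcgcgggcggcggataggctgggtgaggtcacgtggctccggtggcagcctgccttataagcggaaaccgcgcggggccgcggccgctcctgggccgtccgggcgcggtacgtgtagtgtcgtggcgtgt
Srebf2, chr15:82147119-82147268, plus strand: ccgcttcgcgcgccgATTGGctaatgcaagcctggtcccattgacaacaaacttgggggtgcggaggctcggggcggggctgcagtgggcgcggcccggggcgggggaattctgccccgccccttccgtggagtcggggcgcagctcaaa
Ebp, chrX:8193513-8193662, minus strand: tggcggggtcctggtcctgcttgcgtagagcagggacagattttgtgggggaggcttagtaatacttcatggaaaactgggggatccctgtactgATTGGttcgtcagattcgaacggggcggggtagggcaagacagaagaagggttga
In Hmgcs1 the sterol element began 137 bases and the NF-Y motif 45 bases before the start. In Hsd17b7 the looser sterol form began at 117 bases and the NF-Y motif at 73 and 12, and in Idi1 the NF-Y motif began at 45 and 14. The promoter start of Hsd17b7 lay inside the annotated gene, which begins at 169969242 on the minus strand. Its NF-Y motif at 12 bases was therefore within the annotated gene. Ebp, which was not called, had the NF-Y motif from 55 bases before the start. Acat2 and Elovl6 had a called fall and neither motif in the 250 bases searched. Insig1 had a called fall and neither motif in the 150 bases shown, but it had CCAAT farther upstream within the 250 bases.

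Srebf1, Srebf2 and Scap had smaller fold changes than most of the sterol enzymes. Srebf2, the SREBP gene tied most closely to cholesterol synthesis, had 6149, 6367 and 5695 normalized counts in control and 4664, 4621 and 3639 with IL-4, with replicate 6 the lowest (-0.49 ± 0.10, adjusted p = 0.00604). Srebf1, whose products favour fatty acid genes, had 3423, 3464 and 3381 counts in control and 3067, 3142 and 2785 with IL-4, a small shift without overlap (-0.19 ± 0.06, adjusted p = 0.0441). The Srebf1 call was lost when any 1 of the 6 libraries was left out, with adjusted p from 0.0504 to 0.134. Scap, the escort protein, had 2857, 2889 and 2679 counts in control and 2698, 2571 and 2326 with IL-4, which overlapped (-0.15 ± 0.07, adjusted p = 0.14).

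The INSIG genes, which both encode retention proteins, gave different values. Insig1, itself an SREBP target, had 3545, 3751 and 3624 counts in control and 2226, 2187 and 2062 with IL-4 (-0.75 ± 0.06, adjusted p = 2.97e-05). Insig2 had 865, 808 and 917 counts in control and 901, 945 and 916 with IL-4 (0.09 ± 0.07, adjusted p = 0.339). The groups overlapped for Insig2, and its sign turned when library totals set the scale (-0.08). By FPKM, Insig1 went from 51.5 ± 1.27 to 27.1 ± 0.66 and Insig2 from 12.9 ± 0.90 to 12.1 ± 0.39 (SD, n = 3). Stard4, a carrier of cholesterol between membranes, was the most variable of the 31 genes by its standard error. Its counts were 711, 882 and 672 in control and 403, 383 and 216 with IL-4 (-1.18 ± 0.22, adjusted p = 0.00368), and -0.93 without IL-4 replicate 6.

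Fatty acid synthesis genes gave mixed calls. Of 8 genes, 3 were downregulated, 1 was upregulated and 4 were not called, with a median of -0.39. The shares over all genes tested were 18.4% lower and 19.0% higher, and 8764 of 14009 were not called. Acly, which makes cytosolic acetyl-CoA from citrate for both pathways, had 8308, 8734 and 7751 counts in control and 5788, 5539 and 4471 with IL-4 (-0.65 ± 0.10, adjusted p = 0.00149). Elovl6, the elongase that lengthens palmitate, was reduced most, from 985, 1109 and 1029 to 549, 533 and 422 (-1.05 ± 0.11, adjusted p = 0.000144). Fads2, the delta-6 desaturase, was lower by a log2 fold change of -0.40 (adjusted p = 0.00885). Its partner in polyunsaturated fatty acid synthesis, Fads1, was at -0.11 with an interval from -0.26 to 0.03 and was not called.

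Acss2 makes acetyl-CoA from acetate and was the only upregulated gene of the 31. It had 356, 360 and 387 counts in control and 478, 414 and 442 with IL-4 (0.28, adjusted p = 0.0344), named here in full after its values were seen. The call was lost with upper-quartile scaling (0.25, adjusted p = 0.0575) and with library totals (0.10, adjusted p = 0.37). DESeq2 gave a like fold change (0.27) without a call (adjusted p = 0.0558). It was also lost without control replicate 1, control replicate 2 or IL-4 replicate 4. Me1, malic enzyme and a source of NADPH, was at -0.02 with an interval from -0.15 to 0.10.

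Fasn and Acaca, the fatty acid synthase and the carboxylase that feeds it, had the longest transcripts of the 31 at 9938 and 9054 bases, and their counts varied more within groups. These too are given in full after their values were seen. Fasn had 8642, 9154 and 7317 counts in control and 7042, 6422 and 4410 with IL-4, without overlap (-0.49, interval -0.88 to -0.10, adjusted p = 0.0508). Acaca had 3664, 3747 and 3008 counts in control and 3078, 2874 and 2044 with IL-4, with overlap (-0.38, interval -0.74 to -0.03, adjusted p = 0.0883). Fasn and Acaca were both called with DESeq2 (adjusted p = 0.0127 and 0.0489) and with upper-quartile scaling (0.0281 and 0.0491). Library totals (0.00898 and 0.0132) and each of the 3 limma fits on FPKM also called both. When 1 library was left out at a time, adjusted p ran from 0.0159 to 0.153 for Fasn and from 0.0511 to 0.231 for Acaca. Control replicate 3 and IL-4 replicate 6 were the lowest of their groups for both genes.

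Control replicate 3 and IL-4 replicate 6 were also low in long transcripts across the transcriptome. Among 11419 genes with a mean of at least 100 normalized counts, Spearman's rho between transcript length and the log2 difference from the other libraries of the group was -0.65 for control replicate 3 and -0.80 for IL-4 replicate 6, a description across genes that share the libraries. For transcripts over 8 kb the median difference was -0.25 and -0.50, and for those up to 1 kb 0.18 and 0.40. Fasn lay at -0.28 in control replicate 3 and -0.61 in IL-4 replicate 6, and Acaca at -0.30 and -0.54. Without both libraries, an alternative added after the data were seen, Fasn was at -0.40 (adjusted p = 2.87e-06) and Acaca at -0.32 (adjusted p = 2.7e-05). The number of downregulated genes of the 31 was then 26, with Pmvk and Scap also called, and all 23 earlier calls were kept. Calls rose over all genes as well in that setting. Of 14041 genes tested 3520 were lower and 3576 higher, against 2582 and 2663 of 14009 with all 6 libraries. Stard4 stood at -0.86 in IL-4 replicate 6 with a transcript of 2985 bases, and Fads2 at -0.30 with 1508 bases. Whether transcript length sets these values was not tested.

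**Figure D4:**
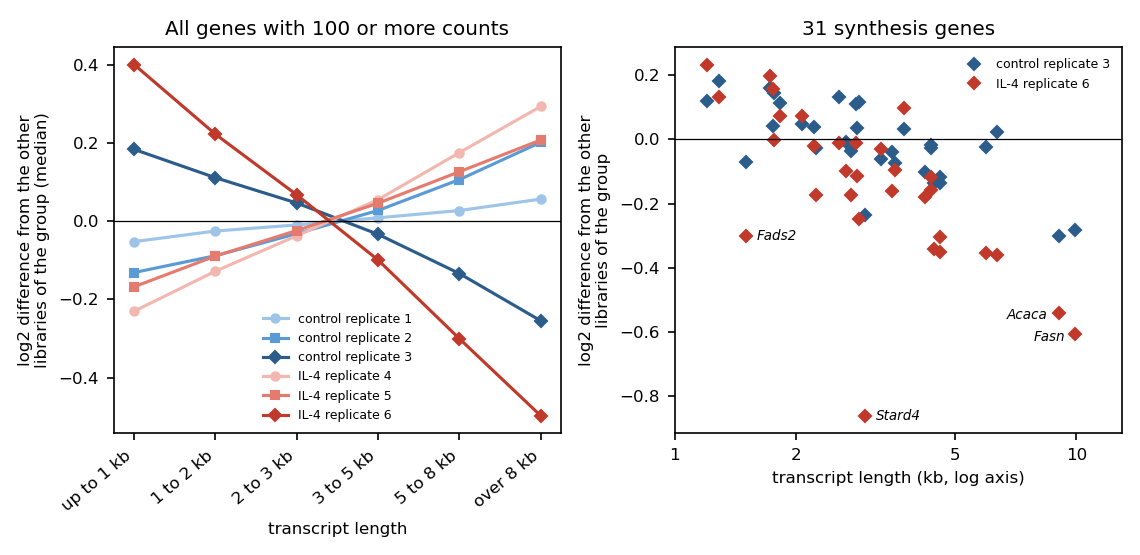
The left panel gives the median log2 difference of each library from the other libraries of its group by transcript length, for genes whose mean normalized count was 100 or more. The right panel gives that difference for the 31 genes in control replicate 3 and IL-4 replicate 6, with Fasn, Acaca, Stard4 and Fads2 named at -0.61, -0.54, -0.86 and -0.30 in IL-4 replicate 6.

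Genes of the same pathways outside the 31 were counted by role. Of 36 such genes 34 were tested, 15 were lower, 1 was higher and 18 were not called, with a median of -0.14. Over all genes tested 18.4% were lower and 19.0% higher. The number lower was 9 without control replicate 1 or without control replicate 2 and 23 with library totals, and the number higher was 5 without IL-4 replicate 6 and 2 without IL-4 replicate 4. Of 5 further sterol enzymes 3 were lower. Of 5 further SREBP targets 4 were lower.

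Among 10 genes of SREBP processing and sterol sensing, 8 were not called, including Mbtps1 and Mbtps2, the proteases that release SREBP. Most genes were not called in this fit, 8764 of 14009 tested. The exception in the upward direction was Nr1h3, the oxysterol receptor LXR alpha, with 104, 107 and 108 counts in control and 261, 249 and 286 with IL-4 (1.32 ± 0.10, adjusted p = 2.68e-05). Nr1h3 is also expressed by macrophages, whose markers moved as given above. The lower one was Mylip, an LXR-induced ubiquitin ligase (-0.25, adjusted p = 0.0156).

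Of 16 further genes of fatty acid synthesis, desaturation and NADPH supply, 14 were tested, 7 were lower and 0 were higher. The shares over all genes tested were 18.4% and 19.0%. Thrsp and Mlxipl were too low to test. The stearoyl-CoA desaturases, which make oleic and palmitoleic acid, gave unequal values. Scd1 had 6311, 6494 and 5950 counts in control and 7477, 7250 and 5859 with IL-4 (0.13 ± 0.10, adjusted p = 0.318), and it was called higher without IL-4 replicate 6 (0.24, adjusted p = 0.00526). Its sign turned with library totals (-0.04). Scd2, the more abundant of the pair, had 32641, 34521 and 30871 counts in control and 28638, 27472 and 21619 with IL-4 (-0.33 ± 0.11, adjusted p = 0.043). The Scd2 call was lost without any 1 of the 3 controls or without IL-4 replicate 5, with adjusted p up to 0.139. By FPKM, Scd2 was at 223 ± 10.5 and Scd1 at 48.1 ± 1.71 in control (SD, n = 3), though both had fractional expected counts, which leaves their split uncertain.

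The microRNA miR-33 lies inside Srebf2 and is known to repress genes of cholesterol export and fatty acid oxidation. Its hairpin was at chr15:82198122-82198190 on the plus strand of GRCm38.p6, in intron 16 of the 19-exon Srebf2 transcript, between exon 16 (ending at 82197786) and exon 17 (starting at 82199635). Both mature strands are shown because their seeds, bases 2 to 8 in capitals, differ.
miR-33-5p: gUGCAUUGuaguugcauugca
miR-33-3p: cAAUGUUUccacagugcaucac
In the small RNA libraries miR-33-5p had 373 and 382 normalized counts in control and 469 and 518 with IL-4, every treated value above the controls (0.39 ± 0.21, interval -0.11 to 0.88, adjusted p = 0.834). For miR-33-3p the counts were 340 and 471 in control and 474 and 388 with IL-4, which overlapped (0.09 ± 0.25, interval -0.52 to 0.69, adjusted p = 0.989). Neither was called by edgeR over 640 miRNAs with 2 libraries per group, and the unadjusted p was 0.105 and 0.745. The small RNA was taken at day 2 and Srebf2 mRNA at day 4, so the values stand side by side without comparison.

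Reads of some genes could not be assigned to 1 gene. Acat2, Fdft1 and Lss had fractional expected counts, so some of their reads were shared between features, and their values are uncertain to that extent. Which features shared them was not tested. Strand use in counting was not given in the sources used here, and 10 of the 31 genes overlap a gene on the opposite strand in GRCm38.p6. For 3 of them the partner is protein-coding: Fdft1 with Ctsb, Srebf1 with Rai1, and Acaca with Tada2a and Gm11437. If strand was not used, reads of such pairs could not be told apart where their exons overlap. Only whole gene spans were compared, so overlap of exons was not tested.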

How the data were processed

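The authors deposited, per mRNA library, expected counts and FPKM per gene (Bowtie2 and RSEM; HISAT, StringTie and mm10 are also named in the submitters' processing notes). For small RNA, the authors deposited read counts per miRNA and per arm (miRDeep2 Quantifier, miRBase v21). A gene missing from a library's table was set to 0, and 1 entry without a gene name was dropped (0.00016% of counts). Expected counts were rounded, filtered (filterByExpr, minimum count 10), scaled by TMM and tested with edgeR 4.0.16 by its quasi-likelihood test in R 4.3.3, with Benjamini-Hochberg adjustment over all 14009 genes or 640 miRNAs. Normalized counts are scaled to the mean effective library size. Small RNA libraries held 23790821 to 32061504 counts. A call is an adjusted p under 0.05. FPKM was tested with limma 3.58.1, and DESeq2 1.42.0 was another alternative. The scripts were tested on simulated data. Genes given per library were those of SREBP control, those called with a log2 fold change of at least 0.5 in size, Scd1, Scd2, and other pathway genes called beyond 1; some further genes of that rule are not reported here. The genes and lists were chosen with earlier results of these data known. P-values set the difference between groups against the spread between these libraries. Whether the mRNA libraries came from separate cultures or animals was not given in the sources used here.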

Additional observations from a re-analysis of the deposited data

How the results depend on the processing

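Of the 23 genes called among the 31, 20 were called in every setting tried; Mvk, Srebf1 and Acss2 were not. The number downregulated ran from 20 to 28, and the number beyond -1 from 5 to 10. Leaving out 1 library at a time gave 20 to 23 downregulated, 5 to 7 beyond -1 and 0 to 1 upregulated. The upregulated count was 0 with DESeq2, upper-quartile scaling, library totals and all 3 limma fits on FPKM. Under library totals the median over all genes was -0.17, with 1704 genes called higher and 4963 lower, against 2663 and 2582 with TMM. Of the other pathway genes, 23 were lower with library totals and with each limma fit, and 1 lay beyond -1 with library totals and with limma on log2(FPKM + 0.1). Leaving out 1 library gave 9 to 15 lower, 1 to 5 higher and 0 beyond -1. Without control replicate 3 and IL-4 replicate 6 (chosen after seeing the data) 16 were lower and 6 higher. Over all 14041 genes tested in that setting, 3520 were lower and 3576 higher.

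Signs turned only for genes that were not called: Ebp without control replicate 3 (0.0026) or IL-4 replicate 5 (0.0526, from -0.06 over single libraries), Me1 without control replicate 1 (0.0009, from -0.0442), Insig2 and Scd1 with library totals (-0.0806 and -0.04), with limma on log2(FPKM + 1), filtered or not (-0.0794 and -0.0452), and with limma on log2(FPKM + 0.1) (-0.085 and -0.0461). The causes were not tested, beyond the shift of the median.

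Without 1 small RNA library, miR-33-5p ran from 0.29 to 0.45 and miR-33-3p from -0.12 to 0.37, turning sign without control replicate 1 (-0.12) or IL-4 replicate 1 (-0.08). Same-numbered small RNA libraries deviated together (r = 0.455 over 640 miRNAs), but with 2 pairs the numbers do not pair the samples; with a replicate block miR-33-5p was at 0.39 (adjusted p = 0.278) and miR-33-3p at 0.09 (adjusted p = 0.892), with no call changed.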
